A study of Mus musculus with 40 samples.

Results

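Complement and coagulation proteins are made mainly by hepatocytes, which secrete them into blood, and 37 genes of these pathways and of their inhibitors were taken as a list. A gene counted as measured when a probe set annotated to its symbol alone lay at log2 4 or higher on 3 or more arrays of a group, and its probe set of highest mean over all 40 arrays stood for it. By this rule 35 of the 37 genes were measured, among 9695 genes tested in all. C3 and Cpb2 had no probe set listed.

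Liver RNA came from 40 male C57BL/6J mice, 12 weeks old, with 1 Affymetrix mouse expression array for each mouse and 4 mice in each group. Wt and Nrf2-null mice, the latter bred from heterozygotes on the C57BL/6J background, were given vehicle (Cremophor-EL, DMSO and PBS), D3T at 300 μmol/kg, or CDDO-Im at a dose of 3, 10 or 30 μmol/kg. They received 3 treatments by gavage over 5 days, ate a purified diet free of ethoxyquin, and were killed 24 hours after the last treatment. D3T, a dithiolethione, and CDDO-Im, a synthetic triterpenoid, both activate the transcription factor Nrf2 by way of its inhibitor Keap1, and the study set 300 μmol/kg D3T beside 10 μmol/kg CDDO-Im as doses of like efficacy for Nrf2 signaling.

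Values are log2 expression after GCRMA normalization, on which the whole table ran from 1.56 to 16.74. Array medians, taken over the probe sets that met the expression minimum, ran from 7.50 to 7.86. On 1 probe set of Nfe2l2, the Nrf2 gene, all 20 Wt mice lay at or above 10.77 and all 20 Nrf2-null mice at or below 3.10, while its other kept probe set overlapped between genotypes. Of 10 hepatocyte markers 9 were measured, and their summed level lay between 18.74 and 19.05 in every mouse. In Wt liver it ran from 18.92 to 18.94 with vehicle and, wholly below that, from 18.81 to 18.90 at 10 μmol/kg and from 18.79 to 18.84 at 30 μmol/kg CDDO-Im. The summed level of the 9 measured endothelial markers, of 10 listed, was lower in the same groups, from 12.57 to 12.61 and from 12.48 to 12.64 against 12.82 to 13.07 with vehicle, and the part of these shifts in the results was not tested. Over all genes the median change was −0.08 at 10 and −0.16 at 30 μmol/kg. With each array centred on its median, 0 of the 9 hepatocyte markers were called lower (adjusted p under 0.05) at either dose, and 1 was higher at 30 μmol/kg. Of the 9 endothelial markers 0 were called at either dose. In bulk liver, fewer cells of a type and less RNA per cell cannot be told apart. The animal numbers in the labels placed the D3T and the 30 μmol/kg CDDO-Im mice of both genotypes in 1 range and the other groups in another, so that this division and those treatments cannot be told apart. Nrf2-null D3T replicate 4 stood apart from its group on several members (Klkb1, Proc, F13b and C1qa among them), and it had the lowest summed levels of that group for Kupffer cell markers (12.20, others 13.77 to 14.34) and endothelial markers (11.48, others 12.99 to 13.13). Values of the members named for that group are given with and without it.

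Coagulation proceeds as a chain of zymogens (F7, F9, F10, F11, F12 and the contact factor Klkb1) that ends in thrombin, from F2, which turns fibrinogen into fibrin. Kng1, also a contact factor, is not a zymogen. Antithrombin (Serpinc1), protein C and protein S hold coagulation in check, and plasmin, from Plg, dissolves the clot. Complement is a parallel cascade in which C1q or the mannose-binding lectins start the cleavage of C4, C2 and C3, after which C5 (the gene Hc) joins with C6, C7, C8 and C9 to form the membrane attack complex.

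In Wt liver 3 members, all genes of the membrane attack complex, were called lower with D3T, and their upstream sequences are shown because of those calls. The bases that precede the annotated span of each gene within the RefSeq promoter window (GRCm38.p6, plus strand for all) are given 5′ to 3′, for C6 at chr15:4726960-4727066, for C8b at chr4:104766067-104766316 and for C9 at chr15:6445096-6445345. Capitals mark motif matches.
C6: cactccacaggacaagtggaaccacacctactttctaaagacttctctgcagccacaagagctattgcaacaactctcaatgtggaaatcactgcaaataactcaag
C8b: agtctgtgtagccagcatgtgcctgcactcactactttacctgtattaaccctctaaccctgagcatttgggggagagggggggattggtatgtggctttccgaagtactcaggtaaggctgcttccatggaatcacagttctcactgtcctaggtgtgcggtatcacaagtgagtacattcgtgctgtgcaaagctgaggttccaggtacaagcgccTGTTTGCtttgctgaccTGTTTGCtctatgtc
C9: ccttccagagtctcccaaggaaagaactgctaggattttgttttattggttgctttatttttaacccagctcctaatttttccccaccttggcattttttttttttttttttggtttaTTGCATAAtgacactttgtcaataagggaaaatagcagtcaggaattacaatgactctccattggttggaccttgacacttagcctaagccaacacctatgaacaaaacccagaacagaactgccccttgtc
The motifs searched on both strands were the antioxidant response element core TGACNNNGC, bound by Nrf2, the HNF1 element, the D-box TTANGTAA, the C/EBP element TTGCNNAA, the forkhead element TGTTTNC and the E-box CACGTG. C8b held the forkhead letters at 2 places, 32 to 26 and 15 to 9 bases before the gene's span, and C9 held the C/EBP letters 132 to 125 bases before it. No motif was found in the C6 bases shown, and the 1 forkhead match of its window lies within the gene's span. Over all 32851 promoter windows of 300 bases, 20.5% held the forkhead letters, 10.8% the C/EBP letters and 12.4% the antioxidant response element core. Of the 28 windows that 27 measured members had, 10 held the forkhead letters, 7 the C/EBP letters and 4 the antioxidant response element core (C1qb, Klkb1, Mbl1 and Serpind1). The HNF1 element was in 1 of the 28 (0.0609% of all windows), the D-box in 1 (2.32%) and the E-box in 0 (7.15%). A match describes the letters only, and a missing match says nothing of the factor.

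In each single comparison of a treatment with vehicle most members were not called. D3T and CDDO-Im at 10 μmol/kg gave 8 calls in Wt mice, of which 7 fell on terminal complement genes. C6 and C8b count in both comparisons, which share their vehicle mice. Called means an adjusted p under 0.05 by limma with Benjamini-Hochberg adjustment over the 9695 genes. D3T lowered 3 of the 35 members and raised 0, where 4.23% of all genes were called, 2.64% higher and 1.59% lower. CDDO-Im at 3 μmol/kg called 0 members (0.474% of all genes, 0.227% higher and 0.248% lower). At 10 μmol/kg it lowered 5 and raised 0 (17.5% of all genes, 5.06% higher and 12.4% lower), and at 30 μmol/kg it lowered 4 and raised 3 (23.6% of all genes, 2.81% higher and 20.8% lower). The 5 of 35 members lower at 10 μmol/kg are near the share of all genes called lower there, which is no result about the members.

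The median change over the members was −0.04 with D3T and 0.11, −0.06 and −0.04 at the rising doses of CDDO-Im, beside 0.00, −0.01, −0.08 and −0.16 over all genes. With each array centred on its own median, the members called at 30 μmol/kg were 5 higher and 0 lower in place of 3 higher and 4 lower, and those at 10 μmol/kg 0 higher and 2 lower in place of 0 and 5. The share of higher genes among all calls there went from 11.9% to 53.9% and from 28.9% to 43.8%. The members called at 30 μmol/kg with centred arrays were F10, Pros1, C4bp, Kng1 (0.30) and Proc (0.19). Changes called at 30 μmol/kg are therefore also given with centred arrays.

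In Nrf2-null mice D3T lowered 4 members and raised 0 (4.09% of all genes, 2.27% higher and 1.83% lower) and 3 μmol/kg CDDO-Im lowered 1 (0.774% of all genes, 0.309% higher and 0.464% lower). The doses of 10 and 30 μmol/kg called 0 members each (0.0722% of all genes, 0.0206% higher and 0.0516% lower, and 0.175%, 0.0722% higher and 0.103% lower). Under vehicle 5 members differed between genotypes, 3 higher and 2 lower in Nrf2-null mice (10.8% of all genes, 5.85% higher and 4.97% lower), and with centred arrays 0 higher and 3 lower.

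Responses were compared between genotypes as the Wt change minus the Nrf2-null change. This difference was called for 0 members with D3T (0.0722% of all genes, 0.0413% higher and 0.0309% lower), for 1 lower member at 10 μmol/kg CDDO-Im (5.4%, 1.7% higher and 3.7% lower) and for 1 higher and 4 lower members at 30 μmol/kg (11.9%, 1.78% higher and 10.1% lower). Between treatments of Wt mice, 1 member was higher with 10 μmol/kg CDDO-Im than with D3T (18.7% of all genes, 4.87% higher and 13.8% lower), and 4 members were higher at 30 than at 10 μmol/kg (19.5%, 5.25% higher and 14.2% lower). The last comparison was added after its values were seen.

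The 4 mice of a group did not overlap the 4 vehicle mice for 6 members with D3T (14.1% of all genes), and, for CDDO-Im, 5 at 3 μmol/kg (7.96%), 4 at 10 μmol/kg (22.9%) and 8 at 30 μmol/kg (28.3%), all in Wt mice. In Nrf2-null mice this held for 3 members with D3T (5.3%), 1 at 3 μmol/kg (5.24%), 2 at 10 μmol/kg (3.46%) and 1 at 30 μmol/kg (4.02%), and between the vehicle groups for 2 (12.6%). It held for 5 members between 10 μmol/kg CDDO-Im and D3T (22.9%) and for 6 between 30 and 10 μmol/kg (23.8%). The members apart at 3 μmol/kg were F9, Kng1, Serpind1 and Plg above vehicle and C8g below it. F9, the hemophilia B factor, read 12.73, 12.76, 12.65 and 12.42 with vehicle and 13.07, 13.21, 12.99 and 12.84 at that dose, a difference of 0.39 (SE 0.09, adjusted p = 0.052) that missed the threshold.

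**Figure D1:**
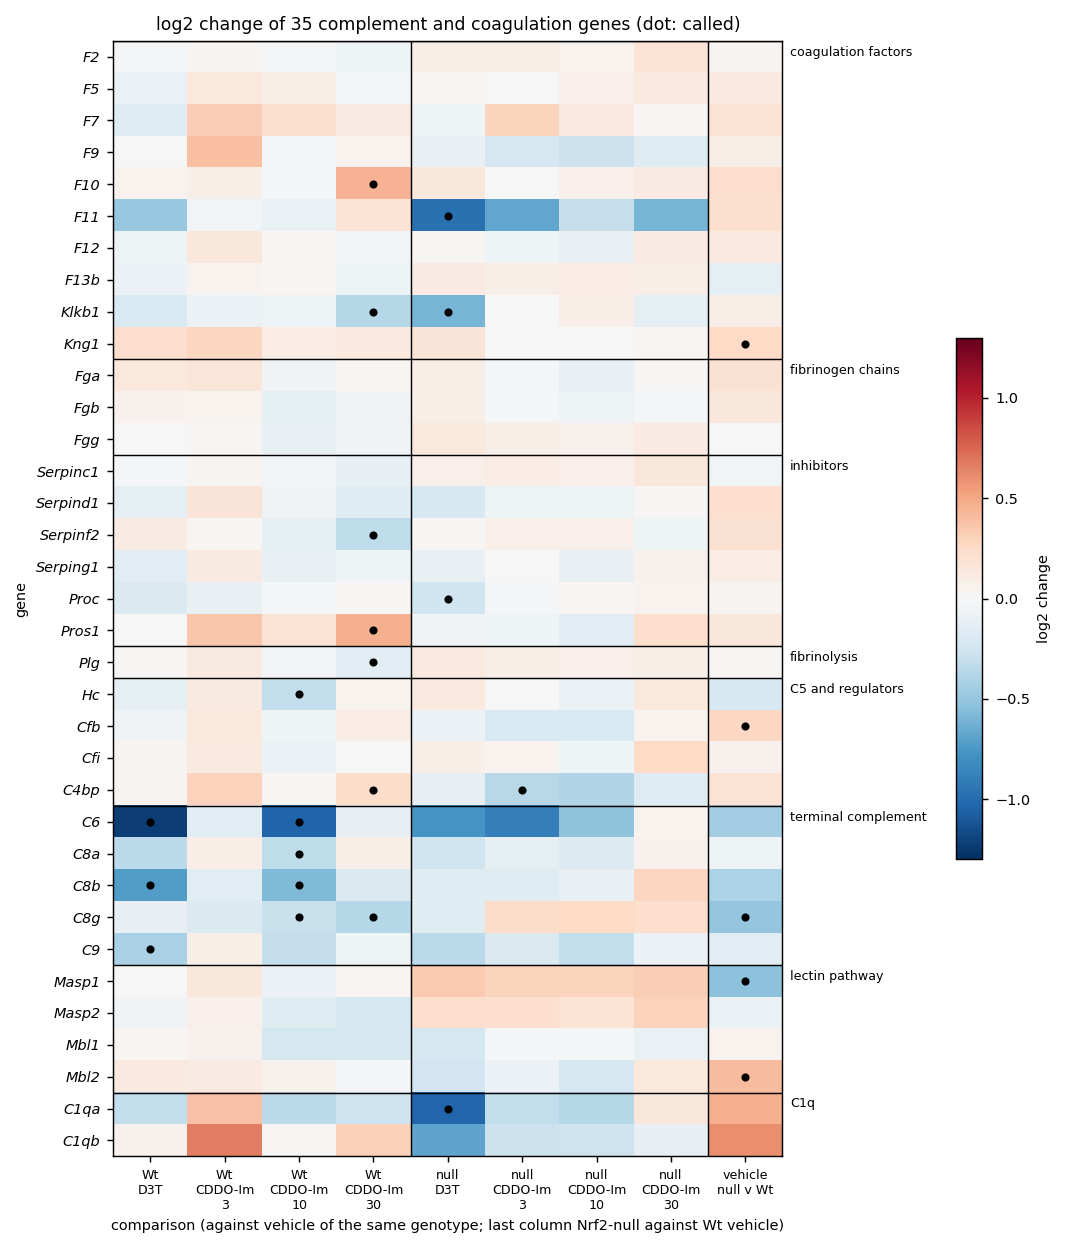
Heat map of the log2 change of the 35 measured members (rows, by role) in 9 comparisons (columns): the 4 treatments against vehicle within Wt and within Nrf2-null mice, doses in μmol/kg, and Nrf2-null against Wt vehicle. Dots mark called changes. The lowest values are those of C6 in Wt mice (−1.23 with D3T and −1.05 at 10 μmol/kg CDDO-Im) and of C1qa in Nrf2-null mice with D3T (−1.03).

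Of the 5 terminal complement genes of Wt mice, 3 fell with D3T and 4 fell at 10 μmol/kg CDDO-Im. Over all genes 1.59% were called lower with D3T and 12.4% at 10 μmol/kg. C6, which binds C5b to begin the membrane attack complex, read 11.55, 11.78, 11.77 and 11.02 in the 4 vehicle mice, 10.48, 9.72, 10.82 and 10.20 with D3T, and 9.86, 10.40, 10.69 and 10.99 at 10 μmol/kg CDDO-Im. Every mouse of both treated groups lay below every vehicle mouse. The change of C6 was −1.23 (SE 0.33, adjusted p = 0.029) with D3T, a fold of 0.427, and −1.05 (SE 0.33, adjusted p = 0.025) with CDDO-Im, a fold of 0.484.

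C8b, the β chain of C8, read 12.83, 12.99, 12.71 and 12.34 with vehicle, 12.14, 11.87, 12.16 and 11.78 with D3T, and 12.09, 12.05, 12.21 and 12.21 at 10 μmol/kg CDDO-Im. Again no treated mouse reached the lowest vehicle mouse. Its change was −0.73 (SE 0.17, adjusted p = 0.012) with D3T and −0.57 (SE 0.17, adjusted p = 0.019) with CDDO-Im. C9, which polymerizes into the pore, read 14.71, 15.00, 15.01 and 14.64 with vehicle and 14.32, 14.30, 14.55 and 14.51 with D3T, and changed by −0.42 (SE 0.12, adjusted p = 0.042). At 10 μmol/kg CDDO-Im its 14.39 to 14.68 overlapped the vehicle mice, and the change of −0.31 did not pass (adjusted p = 0.073).

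C8a, the α chain, read 14.42 to 14.56 with vehicle and 14.09 to 14.20 with D3T, with no overlap, yet the change of −0.34 missed the threshold (adjusted p = 0.078). At 10 μmol/kg CDDO-Im it fell by 0.33 (SE 0.11, adjusted p = 0.040) although 1 treated mouse, at 14.44, passed the lowest vehicle mouse. Hc, which encodes C5, fell by 0.32 at 10 μmol/kg (SE 0.10, adjusted p = 0.026), from 14.56 to 14.85 with vehicle to 14.24 to 14.57, with a like overlap, and changed by −0.11 with D3T (adjusted p = 0.61).

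These calls leaned on single mice. Without Wt vehicle replicate 2, 0 members were called with D3T and 0 at 10 μmol/kg CDDO-Im, where the adjusted p of C6 became 0.084 and 0.075 and that of C8b 0.062 and 0.083. Without Wt D3T replicate 2, 0 were called with D3T (adjusted p of 0.12 for C6, 0.053 for C8b and 0.13 for C9). Over all 15 alternatives C6 changed by −1.40 to −1.03 with D3T and by −1.22 to −0.84 at 10 μmol/kg CDDO-Im, and C8b by −0.86 to −0.64 and by −0.70 to −0.48. With each array centred on its median, C6 and C8b stayed called in both comparisons and C9, C8a and Hc lost their calls. Both comparisons share the vehicle mice.

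Set directly beside D3T, CDDO-Im at 10 μmol/kg gave no called difference for any of the 5 terminal genes. CDDO-Im minus D3T was 0.18 for C6 (95% confidence interval −0.49 to 0.85), 0.16 for C8b (−0.19 to 0.51), 0.01 for C8a (−0.22 to 0.24), 0.11 for C9 (−0.14 to 0.36) and −0.18 for C8g (−0.37 to 0.01). These intervals leave room for differences about as large as some of the changes from vehicle.

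In Wt liver C6 and C8b were called lower at no other dose of CDDO-Im. At 3 μmol/kg C6 read 11.22 to 11.67 and C8b 12.41 to 12.74, and at 30 μmol/kg C6 read 11.31, 11.66, 11.04 and 11.67 and C8b 12.36, 12.64, 12.43 and 12.68. Both ranges at 30 μmol/kg overlap those of vehicle. Against 10 μmol/kg, the 30 μmol/kg mice were higher by 0.93 for C6 (SE 0.33, adjusted p = 0.042), 0.40 for C8a (SE 0.11, adjusted p = 0.011) and 0.37 for Hc (SE 0.10, adjusted p = 0.010), while C8b differed by 0.38 without passing (adjusted p = 0.11). Hc was called in that comparison under all 15 alternatives, whereas C6 was called under 7 of them. With centred arrays these differences were 1.05 for C6, 0.52 for C8a and 0.48 for Hc, all called, and C8b (0.50, adjusted p = 0.031) and C9 (0.37, adjusted p = 0.047) passed too.

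Clock genes moved with the 10 μmol/kg group. Of 11 measured clock and PAR bZIP genes, which follow the time of day, 9 were called in Wt mice given 10 μmol/kg CDDO-Im, among them Dbp at +6.83 and Arntl at −3.88, and 0 were called at 30 μmol/kg. Over all genes 17.5% were called at 10 and 23.6% at 30 μmol/kg. With D3T 1 was called (Nr1d2, +1.79), and Dbp differed by 4.04 without passing (adjusted p = 0.056). The summed level of the 11 genes ran from 12.24 to 12.42 in Wt vehicle mice, from 12.63 to 13.04 with D3T and from 13.57 to 14.27 at 10 μmol/kg CDDO-Im. In Nrf2-null liver it also spread within groups, with 14.16, 12.60, 12.41 and 12.29 under vehicle and 13.81, 12.55, 13.79 and 12.51 at 10 μmol/kg, groups that enter the comparisons between genotypes. Their part in the complement results was not tested.

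In Nrf2-null mice no terminal gene was called with any treatment. C6 read 10.59, 11.43, 10.99 and 11.31 with vehicle and 10.90, 10.92, 10.09 and 9.35 with D3T, a change of −0.77 (95% confidence interval −1.43 to −0.10, adjusted p = 0.18). Without replicate 4 the change was −0.45 (−1.11 to 0.22, adjusted p = 0.48). At 3 μmol/kg CDDO-Im C6 read 10.52, 10.96, 8.91 and 10.39, a change of −0.89 (−1.55 to −0.22, adjusted p = 0.20) that was −0.46 without the mouse at 8.91, and at 10 μmol/kg it changed by −0.53 (−1.19 to 0.14, adjusted p = 0.51). Nrf2-null vehicle mice spread widely, C8b from 11.46 to 12.87, and C8b changed by −0.16 with D3T (−0.12 without replicate 4), −0.16 at 3 μmol/kg and −0.09 at 10 μmol/kg. Between genotypes the response of C6 differed by −0.46 with D3T (−1.40 to 0.48) and −0.52 at 10 μmol/kg (−1.46 to 0.42), and that of C8b −0.57 (−1.06 to −0.08, adjusted p = 0.31) and −0.48 (−0.97 to 0.01, adjusted p = 0.24). Without Nrf2-null D3T replicate 4 the D3T differences were −0.78 for C6 (−1.69 to 0.13) and −0.61 for C8b (−1.13 to −0.09, adjusted p = 0.28). The falls of C6 and C8b were thus not shown to differ between genotypes, nor shown to be alike.

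**Figure D2:**
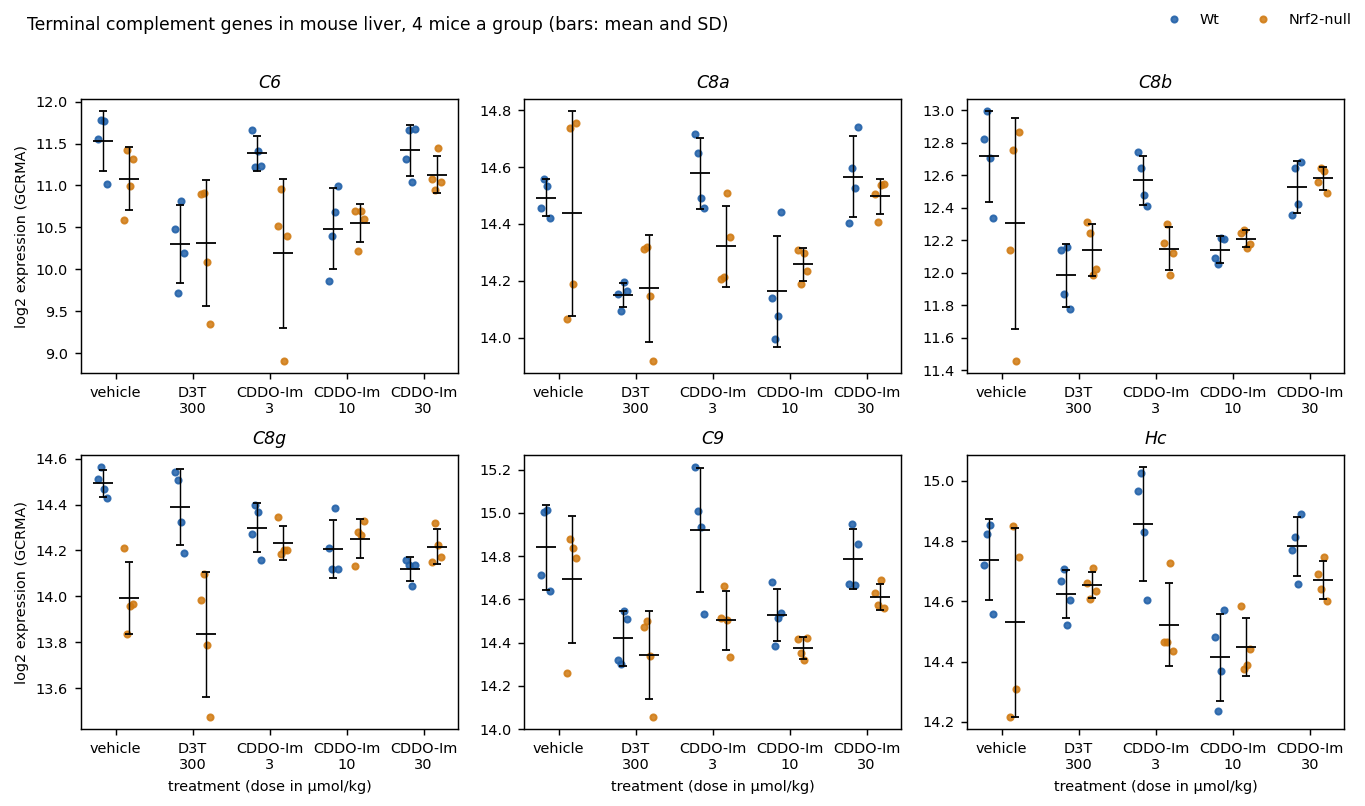
Log2 expression (vertical axis) of 5 terminal complement genes and Hc in each mouse, by treatment (doses in μmol/kg), Wt in blue and Nrf2-null in orange, with bars for the mean and SD of 4 mice. C6 and C8b of Wt mice drop with D3T and at 10 μmol/kg CDDO-Im and sit near vehicle at 3 and 30 μmol/kg, while C8g separates the genotypes under vehicle.

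C8g encodes the γ chain of C8, a lipocalin bound to the α chain, and it followed another pattern than the other terminal genes. It read 14.51, 14.56, 14.47 and 14.43 in Wt vehicle mice and 14.21, 13.83, 13.96 and 13.97 in Nrf2-null vehicle mice, with no overlap. The genotypes differed by −0.50 (SE 0.09, adjusted p = 0.00048), a fold of 0.707, and this call held under all 15 alternatives.

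In Wt liver C8g read 14.19 to 14.54 with D3T, 14.16 to 14.40 at 3 μmol/kg, 14.21, 14.12, 14.39 and 14.12 at 10 μmol/kg, and 14.16, 14.14, 14.04 and 14.13 at 30 μmol/kg CDDO-Im. It fell by 0.28 at 10 μmol/kg (SE 0.09, adjusted p = 0.030) and by 0.37 at 30 μmol/kg (SE 0.09, adjusted p = 0.0040), with no overlap with vehicle at either dose. In Nrf2-null liver it read 14.13 to 14.33 at 10 μmol/kg and 14.15 to 14.32 at 30 μmol/kg, changes of 0.26 and 0.22 from vehicle that did not pass (adjusted p = 0.22 and 0.37). Its responses differed between genotypes by −0.54 at 10 μmol/kg (SE 0.13, adjusted p = 0.013) and −0.60 at 30 μmol/kg (SE 0.13, adjusted p = 0.0038), and both calls held under all 22 alternatives. Both differences include the gap between the genotypes under vehicle, while the treated mice of the genotypes overlapped at each of these doses. With centred arrays the Wt changes themselves were −0.23 at 10 μmol/kg (adjusted p = 0.084) and −0.20 at 30 μmol/kg (adjusted p = 0.15), and neither was called.

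Among the 10 coagulation factors of Wt mice, 1 rose and 1 fell at 30 μmol/kg CDDO-Im and 0 were called with D3T or at the other doses. At 30 μmol/kg 23.6% of all genes were called, and a share near that of all genes is no result about the factors. F10, the factor that activates prothrombin, read 12.61, 12.62, 12.47 and 12.50 with vehicle and 12.97, 13.05, 12.95 and 13.05 at 30 μmol/kg, a rise of 0.46 (SE 0.09, adjusted p = 0.00048) with no overlap, and of 0.63 with centred arrays. That result belongs to 1 of 3 kept probe sets: the other two changed by −0.20 and −0.26, and with the mean of the 3 the change of F10 was −0.0015. The same holds for its difference of 0.48 between 30 and 10 μmol/kg (adjusted p = 3e-04), which was −0.0072 with the mean.

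Klkb1, plasma prekallikrein, read 13.61, 13.54, 13.45 and 13.52 with vehicle and 13.25, 13.10, 13.06 and 13.24 at 30 μmol/kg CDDO-Im. It fell by 0.37 (SE 0.13, adjusted p = 0.038), and by 0.19 with centred arrays (adjusted p = 0.33). F7, which starts coagulation with tissue factor, was the 1 member that differed between 10 μmol/kg CDDO-Im and D3T: 11.08, 11.03, 11.17 and 11.38 against 10.83, 10.86, 10.78 and 10.76, a difference of 0.36 (SE 0.13, adjusted p = 0.044). The vehicle mice, at 10.77 to 11.21, overlapped both groups, and F7 lost its call when any 1 of 7 of the 8 mice was left out. F2, F5, F9, F12 and F13b, the genes of prothrombin, factors V, IX and XII and the B subunit of factor XIII, were called in no comparison with all mice and uncentred arrays. With centred arrays 3 members were called higher with 10 μmol/kg CDDO-Im than with D3T. They were F7 (0.43, adjusted p = 0.014), F5 (0.24, adjusted p = 0.0091) and Proc (0.24, adjusted p = 0.0084).

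In Nrf2-null liver D3T lowered F11, Klkb1, Proc and C1qa. F11, the plasma thromboplastin antecedent, read 11.36, 11.16, 10.64 and 11.45 with vehicle and 9.98, 10.68, 10.29 and 9.77 with D3T, with 1 vehicle mouse in the D3T range, a fall of 0.97 (SE 0.19, adjusted p = 0.0037), a fold of 0.510. In Wt liver F11 changed by −0.49 (adjusted p = 0.14), and the genotypes' responses were not shown to differ (0.48, 95% confidence interval −0.06 to 1.03, and 0.34 without Nrf2-null D3T replicate 4). Klkb1 read 13.68, 13.43, 13.55 and 13.74 with vehicle and 13.25, 13.26, 13.27 and 12.20 with D3T. It fell by 0.61 (SE 0.13, adjusted p = 0.0063), and without replicate 4, whose 12.20 stands far from the others, by 0.34 (adjusted p = 0.0036).

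Proc, the gene of protein C, read 13.90, 13.78, 13.73 and 13.94 with vehicle and 13.66, 13.62, 13.64 and 13.38 with D3T in Nrf2-null liver, a fall of 0.26 (SE 0.06, adjusted p = 0.013). Without replicate 4 it fell by 0.20 (adjusted p = 0.046) and F11 by 0.84 (adjusted p = 0.0094). That omission left 4 members called, F11, Klkb1 and Proc lower and F13b higher by 0.21 in place of 0.10. When the Nrf2-null vehicle and D3T groups were fitted alone, 0 members were called. The Wt change of Proc with D3T was −0.18 (adjusted p = 0.086).

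**Figure D3:**
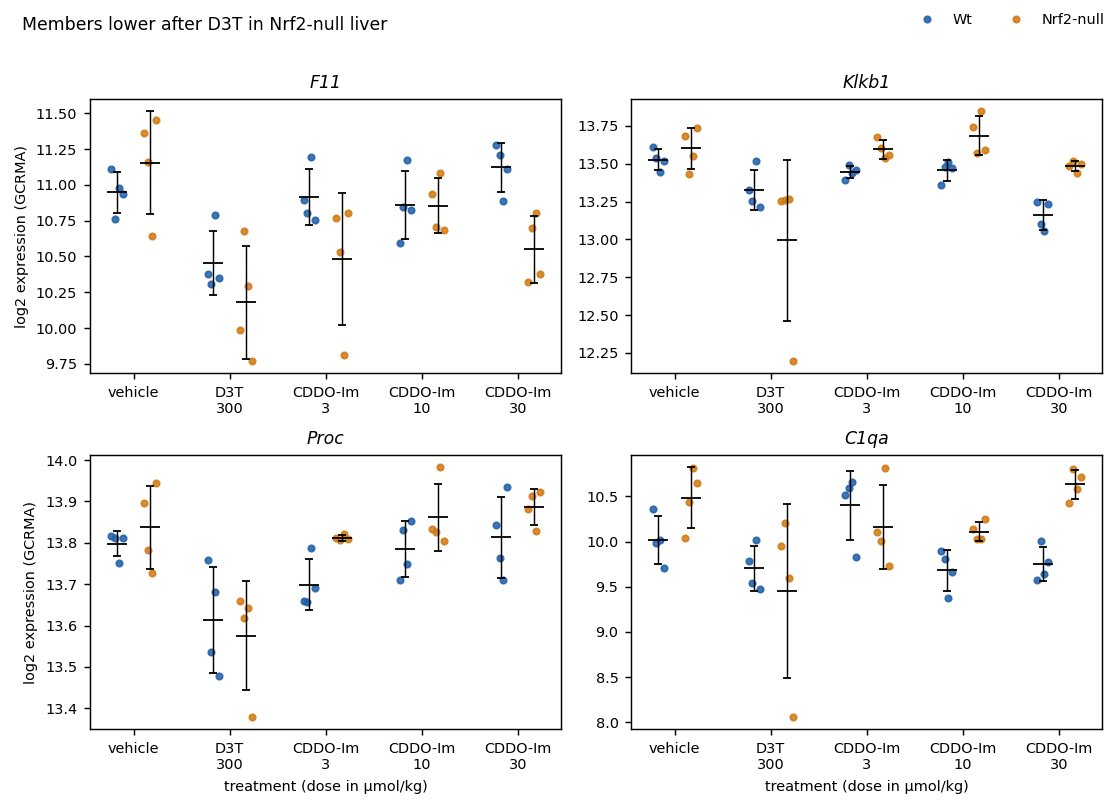
Log2 expression (vertical axis) of F11, Klkb1, Proc and C1qa in each mouse, by treatment (doses in μmol/kg), Wt in blue and Nrf2-null in orange, with bars for the mean and SD of 4 mice. In the Nrf2-null D3T group 1 mouse lies far below the others for Klkb1 (12.20) and C1qa (8.06).

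The 3 fibrinogen chains, the substrate of thrombin and in many species an acute-phase protein, were called in none of the 14 comparisons, with a smallest adjusted p of 0.082. Fga read 15.20, 15.36, 15.26 and 15.29 in Wt vehicle mice and 15.27, 15.30, 15.12 and 15.50 at 30 μmol/kg CDDO-Im, a change of 0.02 (95% confidence interval −0.13 to 0.17). Fgb changed by −0.04 (−0.22 to 0.14) and Fgg by −0.05 (−0.17 to 0.07). With centred arrays the 3 changes were 0.19, 0.13 and 0.13, and 0 were called. All 3 chains read above 15, near the top of the table at 16.74.

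Over the same mice other acute-phase genes rose steeply. Of 17 measured acute-phase genes 7 rose and 0 fell in Wt mice given 30 μmol/kg CDDO-Im, among them Lcn2 at +5.28 (adjusted p = 0.0051), Saa2 at +5.11 (adjusted p = 0.0031), Orm2 at +3.92 (adjusted p = 0.0045) and Saa1 at +3.52 (adjusted p = 0.0089). Over all genes 2.81% were called higher at that dose. With centred arrays 7 rose and 0 fell as well, where 6.57% of all genes were called higher. Single mice of the other Wt groups were high as well, with Lcn2 at 7.72 to 12.09 with D3T, though 0 of the 17 genes were called there or at the lower doses. In Nrf2-null liver at 30 μmol/kg, Lcn2 read 4.81 to 5.64 beside 5.79 to 7.91 with vehicle. Both measured neutrophil markers also rose at 30 μmol/kg in Wt liver, S100a8 by 3.39 and S100a9 by 2.94, and their summed level ran from 8.34 to 9.68 beside 5.01 to 6.93 with vehicle. That level was as high in other mice without a call, at 8.84, 10.40, 9.10 and 5.36 in Wt mice given 3 μmol/kg and 7.31 to 9.62 in Nrf2-null mice given D3T, while Nrf2-null vehicle mice ran from 5.40 to 8.46. The other 4 neutrophil markers, the defining granule genes Ngp, Camp, Ltf and Mpo, did not reach the minimum, and their part in the 30 μmol/kg results was not tested.

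**Figure D4:**
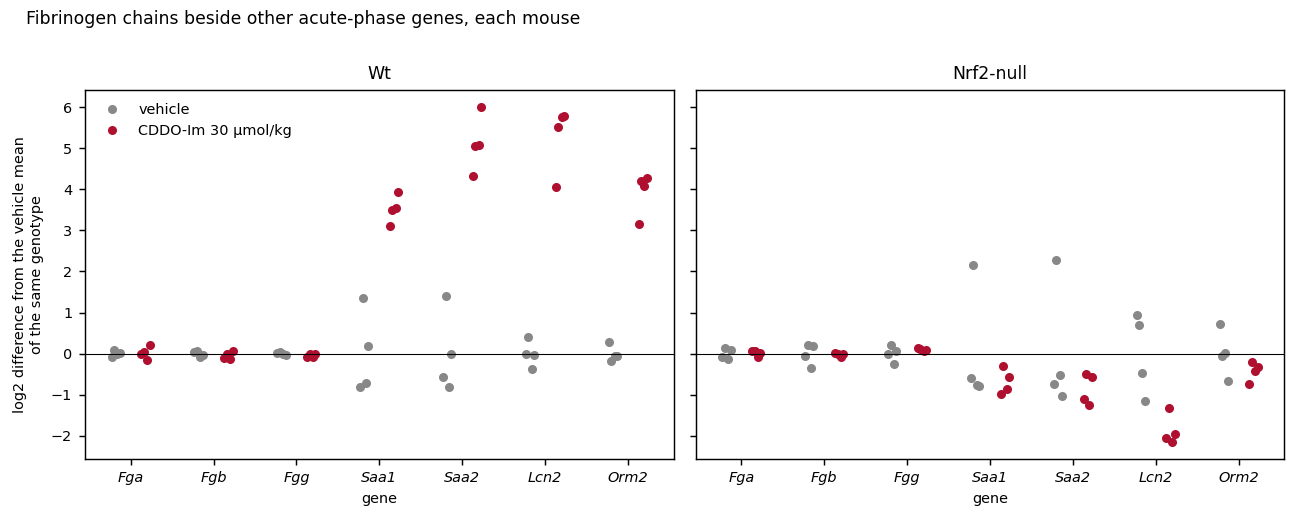
Log2 difference of each mouse from the vehicle mean of its genotype (vertical axis) for 3 fibrinogen chains and 4 other acute-phase genes, vehicle in grey and 30 μmol/kg CDDO-Im in red, Wt on the left and Nrf2-null on the right. In Wt mice Saa1, Saa2, Lcn2 and Orm2 lie 3.12 to 6.00 above their vehicle means while the fibrinogen chains stay between −0.15 and 0.22.

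Of the 6 inhibitors and anticoagulants of Wt mice, 1 rose and 1 fell at 30 μmol/kg CDDO-Im, where 2.81% of all genes were called higher and 20.8% lower. Pros1, protein S, the cofactor of activated protein C, read 10.36, 10.36, 10.27 and 10.05 with vehicle and 10.61, 10.80, 10.89 and 10.58 at 30 μmol/kg, a rise of 0.46 (SE 0.16, adjusted p = 0.039) with no overlap. With centred arrays the rise was 0.63 (adjusted p = 0.0071), but leaving out any 1 of the 4 vehicle mice ended the call. Serpinf2, α2-antiplasmin, the inhibitor of plasmin, read 13.35, 13.12, 13.10 and 13.18 with vehicle and 12.71, 12.88, 12.63 and 13.22 at 30 μmol/kg, where the last mouse lies among the vehicle mice. It fell by 0.33 (SE 0.10, adjusted p = 0.015), and by 0.15 with centred arrays (adjusted p = 0.38).

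Plg, plasminogen, read 15.04, 15.09, 15.02 and 15.07 with vehicle and 14.92, 14.88, 14.85 and 14.96 at 30 μmol/kg, a fall of 0.15 (SE 0.04, adjusted p = 0.010) about equal to that of the median gene. With centred arrays its change was 0.02. The response of Plg differed between genotypes by −0.23 (SE 0.06, adjusted p = 0.013) and that of Serpinc1, antithrombin, by −0.26 (SE 0.07, adjusted p = 0.014), which with centred arrays became −0.07 (adjusted p = 0.65) and −0.10 (adjusted p = 0.48). Over all genes the median of that difference was −0.17. Serpind1 (heparin cofactor II) and Serping1 (C1 inhibitor) were called in no comparison.

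C4bp, which binds C4b and limits the complement convertase, read 14.06, 14.25, 14.19 and 14.10 in Wt vehicle mice and 14.46, 14.46, 14.30 and 14.35 at 30 μmol/kg CDDO-Im, a rise of 0.24 (SE 0.09, adjusted p = 0.047) with no overlap, and of 0.42 with centred arrays (adjusted p = 0.0034). In Nrf2-null liver it read 14.18, 14.51, 14.27 and 14.39 with vehicle and 14.14, 14.18, 14.14 and 14.21 at 30 μmol/kg, a change of −0.17 (adjusted p = 0.55). The responses differed by 0.41 (SE 0.13, adjusted p = 0.031), and by 0.57 with centred arrays (adjusted p = 0.0083). At 3 μmol/kg in Nrf2-null liver C4bp read 13.85, 13.97, 14.14 and 13.96 and fell by 0.36 (adjusted p = 0.048), a call lost under 11 of 15 alternatives. Cfi, factor I, was called in no comparison.

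The lectin pathway genes gave calls between genotypes rather than with treatment in Wt liver, where 0 of 4 were called at any dose. Masp2, the protease that cleaves C4 and C2, read 11.19, 11.10, 10.89 and 10.98 in Wt vehicle mice, 10.99, 10.74, 10.89 and 10.65 at 30 μmol/kg, and in Nrf2-null mice 11.14, 10.79, 10.81 and 11.10 with vehicle and 11.12, 11.33, 11.43 and 11.14 at 30 μmol/kg. Neither change passed (−0.23, adjusted p = 0.067, and 0.30, adjusted p = 0.17), and the difference between them was −0.52 (SE 0.13, adjusted p = 0.0085). With centred arrays it was −0.37 (adjusted p = 0.081), and with the mean of both probe sets −0.39 (adjusted p = 0.029).

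Under vehicle, Mbl2, a mannose-binding lectin, was higher in Nrf2-null than in Wt liver by 0.42 (SE 0.12, adjusted p = 0.022), at 14.09, 14.60, 14.35 and 14.41 against 14.17, 13.80, 14.00 and 13.82, with overlap. Kng1, kininogen, was higher by 0.25 (SE 0.08, adjusted p = 0.038) and Cfb, factor B of the alternative pathway, by 0.27 (SE 0.09), the latter at the threshold. With centred arrays Mbl2, Kng1 and Cfb all lost their calls. Masp1 was lower by 0.53 (SE 0.11, adjusted p = 0.00099), at 11.95, 11.55, 10.98 and 11.72 against 12.21, 11.95, 11.99 and 12.18, but its probe sets disagreed: of the other 3 kept ones, changes were 0.46, 0.50 and 0.17, and the mean of all 4 gave 0.15 (adjusted p = 0.35).

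C1qa and C1qb encode chains of C1q, which is made by macrophages rather than hepatocytes. C1qa read 10.04, 10.44, 10.82 and 10.65 in Nrf2-null vehicle mice and 9.95, 10.21, 9.59 and 8.06 with D3T, a fall of 1.03 (SE 0.28, adjusted p = 0.027) with 1 overlapping mouse. Without replicate 4 the change was −0.57 (adjusted p = 0.10). C1qb changed by −0.68 (adjusted p = 0.17), and by −0.37 without replicate 4 (adjusted p = 0.49). The summed level of the 13 measured Kupffer cell markers in that group ran from 12.20 to 14.34, beside 13.83 to 14.53 with vehicle, and from 13.77 without replicate 4, and their part in the C1qa result was not tested. Across the 40 mice the genes most like C1qa were Adgre1 (r = 0.927), Cd53 (0.924), Tyrobp (0.921), Ctss (0.92) and Ly86 (0.919), and C1qa and C1qb correlated at 0.817 both over all mice and within groups. In Wt liver neither chain was called at any dose.

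Among genes of the pathways outside the list, 1 of 18 other complement genes rose and 3 fell with D3T in Wt mice, and 0 were called with 10 μmol/kg CDDO-Im. Over all genes 2.64% were called higher and 1.59% lower with D3T, and 17.5% were called at 10 μmol/kg. With centred arrays 1 of the 18 was called higher at 10 μmol/kg and 4 at 30 μmol/kg, and 0 were lower at either dose. Over all genes 7.1% and 6.57% were called higher at these doses with centred arrays. C2, the serine protease that acts with C4, fell by 0.77 with D3T (SE 0.13, adjusted p = 0.00036), from 11.12 to 11.18 in the vehicle mice to 10.46, 10.51, 10.37 and 10.18. C1ra fell by 0.37 (adjusted p = 0.021) and Cfhr2 by 0.30 (adjusted p = 0.012), and Cr1l rose by 0.33 (adjusted p = 0.026). Both C2 and C1ra were higher at 10 μmol/kg CDDO-Im than with D3T, by 0.46 and 0.36.

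Of 14 other coagulation and fibrinolysis genes, 3 fell and 0 rose in Wt mice given 30 μmol/kg CDDO-Im: Tfpi, the inhibitor of the tissue factor pathway, by 1.11 (adjusted p = 0.038), Proz, protein Z, by 0.46 (adjusted p = 0.00017) and Hgfac by 0.29 (adjusted p = 0.047). That is 3 of 14 where 20.8% of all genes were called lower, and a share near that of all genes is no result about the list. With centred arrays Proz alone of the 3 stayed called (−0.29, adjusted p = 0.033), Tfpi and Hgfac changed by −0.94 (adjusted p = 0.11) and −0.12, and Hrg and Fgl1 were called higher. In those given 10 μmol/kg Proz fell by 0.27 (adjusted p = 0.022), and its responses differed between genotypes by −0.59 at 10 and −0.57 at 30 μmol/kg (−0.57 and −0.42 with centred arrays, both called). Of 9 genes of the vitamin K cycle and of factor secretion, Nqo1, a quinone reductase and Nrf2 target, rose by 2.54 with D3T, 2.31 at 10 and 4.09 at 30 μmol/kg CDDO-Im. Tpst1, which sulfates tyrosines of secreted proteins, fell by 0.47, 0.57 and 0.45 in the same groups, the last not called with centred arrays (−0.28, adjusted p = 0.14), while Ggcx and Vkorc1, which carboxylate the vitamin K-dependent factors and recycle the vitamin, were not called.

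Of 20 measured regulators of liver and acute-phase genes, 5 fell and 0 rose at 30 μmol/kg in Wt liver, with Foxa1 at −1.19, Cebpa at −0.98, Foxa2 at −0.85 and Nr1h4 at −0.55, a share near the 20.8% of all genes called lower there. With centred arrays 2 of the 20 were lower, Foxa1 (−1.01, adjusted p = 0.036) and Cebpa (−0.81, adjusted p = 0.0071), where 5.61% of all genes were. With D3T 0 of the 20 were called, and at 10 μmol/kg Il6ra rose by 1.37 and Nr5a2 by 0.46.

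As a description over the 40 arrays, which share normalization and groups, C6, C8a, C8b and C9 correlated pairwise at 0.631 to 0.779, and at 0.36 to 0.635 within groups. The fibrinogen chains correlated at 0.758 to 0.892, and at 0.682 to 0.898 within groups. The genes most like C6 were Ugt2b38 (r = 0.853), Cyp7b1 (0.803), Selenbp1 (0.789), Alas2 (0.779) and Ulk2 (0.767). C8b was closest to C2 (0.796) and C8a (0.779), and C8g to Mcee (0.84), Dhrs3 (0.80) and Bdh2 (0.793).

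**Figure D5:**
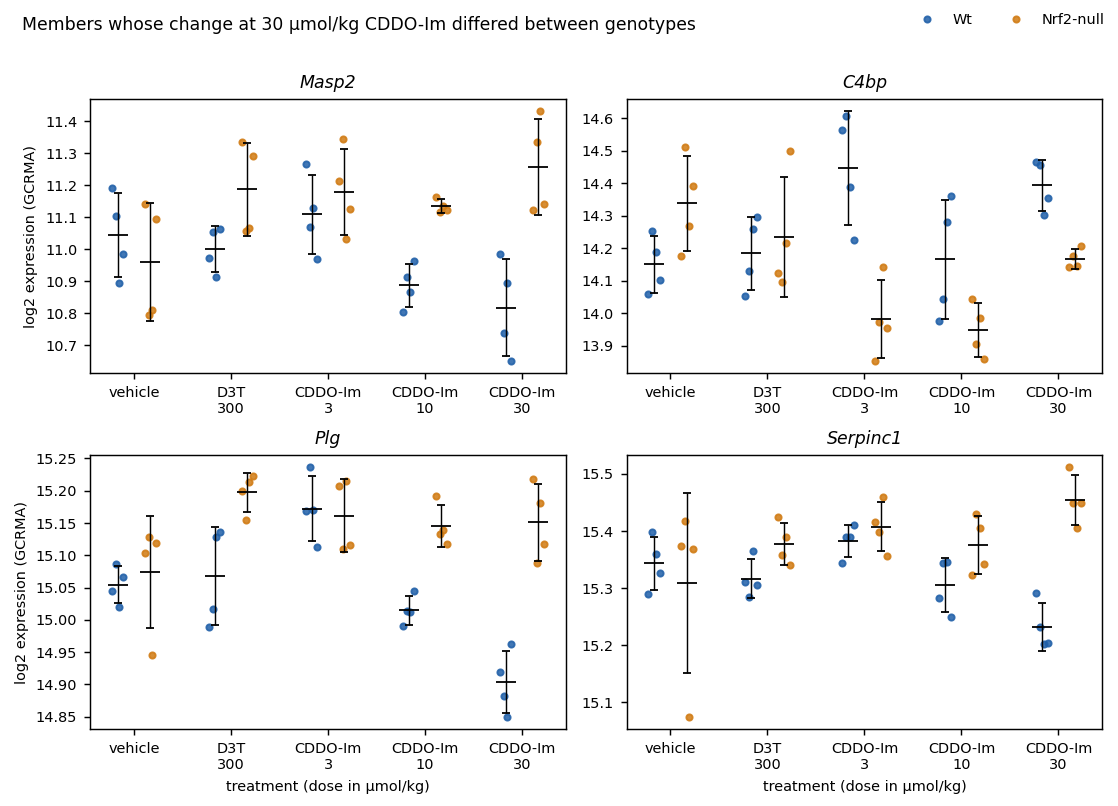
Log2 expression (vertical axis) of Masp2, C4bp, Plg and Serpinc1 in each mouse, by treatment (doses in μmol/kg), Wt in blue and Nrf2-null in orange, with bars for the mean and SD of 4 mice. At 30 μmol/kg CDDO-Im the Wt mice of Masp2, Plg and Serpinc1 lie below the Nrf2-null mice and those of C4bp lie above them.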

How the data were processed

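Liver RNA of 40 mice was hybridized to Affymetrix arrays, 1 per mouse, and the deposited log2 intensities of 45037 probe sets were computed by the authors with GCRMA, which corrects background by probe GC content, normalizes quantiles and summarizes by median polish. The version is not given in the sources used here. Groups and replicate numbers came from the sample labels. Of the probe sets, 34945 carried 1 symbol, 932 several and 9160 had none listed, and 18935 reached log2 4 on 3 arrays of a group, which stands in for the present calls of the study. The kept probe set of highest mean represented a gene (9695 genes), and 45 member probe sets were kept, with more than 1 for 6 members. The members and lists were chosen with earlier results of these data known.

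All groups were fitted together with limma 3.58.1 in R 4.3.3 (eBayes with trend and robust variances, statmod 1.5.0), in place of the Kruskal-Wallis and Wilcoxon tests of the study, with Benjamini-Hochberg adjustment over all genes of each comparison and a threshold of 0.05. The fit was tested on simulated data. Alternatives were no expression minimum, arrays centred on their median, plain variances, the mean of a gene's kept probe sets, a replicate block, the groups of a comparison alone, exact Wilcoxon tests, and leaving out each mouse. The median for centring was that of the kept probe sets of an array. Centred values of genes outside the member list were added after the data were seen. Named genes were all called members, then members of each role group, up to 4 genes of each other list (called ones by size of change, then others), and the 5 genes most correlated with a member shown. The mice are separate animals. The number of arrays limits the precision. Promoter windows came from RefSeq (GRCm38.p6), with 27 of 35 measured members matched. Plots were drawn with Matplotlib 3.10.9.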

Additional observations from a re-analysis of the deposited data

Results flagged for a closer look

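In groups of 4, a value far from the other 3 by Dixon's criterion was found for 19 of 350 combinations of member and group, and 17.5 would arise at the 1 in 20 that chance gives. In Wt liver these were F11 with D3T replicate 3 (10.79, others 10.31 to 10.38), Fga at 10 μmol/kg CDDO-Im replicate 1 (15.01), Fgg with D3T replicate 1 (15.90), Proc with vehicle replicate 3 (13.75), Cfb at 10 μmol/kg replicate 4 (13.09), C1qa at 3 μmol/kg replicate 4 (9.83) and C1qb with vehicle replicate 1 (10.85). In Nrf2-null liver D3T replicate 4 was low for Klkb1 (12.20, others 13.25 to 13.27), Proc (13.38) and F13b (13.23). Nrf2-null vehicle replicate 3 was low for Serpinc1 (15.07) and Plg (14.95), and vehicle replicate 1 for Cfb (12.95) and C9 (14.26). The remaining Nrf2-null values were F7 at 10 μmol/kg replicate 2 (11.38), Kng1 at 30 μmol/kg replicate 3 (15.21), Proc at 10 μmol/kg replicate 3 (13.98), Hc at 3 μmol/kg replicate 3 (14.73) and C8g at 3 μmol/kg replicate 1 (14.34).

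The response to CDDO-Im was called different between genotypes, by the test of the difference itself, for C8g at 10 μmol/kg (−0.54) and, at 30 μmol/kg, for C8g (−0.60), Masp2 (−0.52), Serpinc1 (−0.26), Plg (−0.23) and C4bp (0.41), each given as the Wt minus the Nrf2-null change. With centred arrays Masp2 (−0.37), Serpinc1 (−0.10) and Plg (−0.07) lost their calls at 30 μmol/kg. With uncentred arrays the median of the difference at 30 μmol/kg over all genes was −0.17.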

How the results depend on the processing

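Of 582 values of single members under the alternatives, 419 kept their call, 159 lost it and 4 reversed, and 4 of 36 calls held throughout (C8g between genotypes and in its response at 10 and 30 μmol/kg, and Hc between 30 and 10 μmol/kg). The C8g calls share their vehicle mice. Reversed were Plg at 30 μmol/kg in Wt liver with centred arrays (0.021) and, with the mean of all kept probe sets, F10 at 30 μmol/kg (−0.0015) and between 30 and 10 μmol/kg (−0.0072) and Masp1 between genotypes (0.15). The numbers of members called were 3 with D3T, 0, 5 and 7 at 3, 10 and 30 μmol/kg CDDO-Im and 1 between 10 μmol/kg and D3T in Wt liver, 4 with D3T and 1, 0 and 0 at the 3 doses in Nrf2-null liver, 5 between genotypes and 4 between 30 and 10 μmol/kg.

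Without the expression minimum, which brings in more genes, they became 1 with D3T, 2 at 10, 4 at 30 and 0 between 10 μmol/kg and D3T in Wt liver, 0 at 3 μmol/kg in Nrf2-null liver and 3 between genotypes. With centred arrays they became 1 at 3, 2 at 10 and 3 between 10 μmol/kg and D3T in Wt liver, 0 at 3 μmol/kg in Nrf2-null liver, 3 between genotypes (0 higher, 3 lower) and 8 between 30 and 10 μmol/kg, and the differences between genotypes at 30 μmol/kg were 3 higher and 1 lower in place of 1 and 4. Centring also moved the share of all called genes that were higher, at 30 μmol/kg in Wt liver from 11.9% to 53.9%, at 10 μmol/kg from 28.9% to 43.8%, at 3 μmol/kg from 47.8% to 57.9%, between 10 μmol/kg and D3T from 26.1% to 44.6%, between 30 and 10 μmol/kg from 27% to 58.1%, between genotypes from 54.1% to 32.3%, for the difference in response to 30 μmol/kg from 15% to 51.7%, and in Nrf2-null liver at 3 and 10 μmol/kg from 40% to 76.6% and from 28.6% to 60%. With the groups of a comparison alone they became 5 with D3T and 2 between 10 μmol/kg and D3T in Wt liver, 0 with D3T and 0 at 3 μmol/kg in Nrf2-null liver, 1 between genotypes and 7 between 30 and 10 μmol/kg. Exact Wilcoxon tests at an unadjusted 0.05 gave 6 with D3T, 5 at 3 μmol/kg and 5 between 10 μmol/kg and D3T in Wt liver, 2 and 1 at 10 and 30 μmol/kg in Nrf2-null liver and 2 between genotypes. Plain variances gave 0 at 3 μmol/kg in Nrf2-null liver and 3 between genotypes, and the mean of probe sets 0 and 3, with 2 between 10 μmol/kg and D3T. The cause of these shifts was not tested.

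Replicate numbers did not pair the mice (correlations of same-numbered mice from −0.222 to 0.372, with no comparison in which every pair was over 0.1). With the replicate block 1 member was called at 3 μmol/kg in Wt liver, 0 between 10 μmol/kg and D3T and 0 at 3 μmol/kg in Nrf2-null liver, and other numbers stayed within 1.5 times. Leaving out 1 mouse gave 0 to 3 with D3T, 0 to 2, 0 to 6 and 3 to 6 at the 3 doses and 0 to 1 between 10 μmol/kg and D3T in Wt liver, 3 to 8 with D3T and 0 to 4, 0 to 5 and 0 to 1 at the doses in Nrf2-null liver, 2 to 7 between genotypes, 0 to 0, 1 to 3 and 4 to 6 for the differences in response to D3T, 10 and 30 μmol/kg, and 3 to 5 between 30 and 10 μmol/kg. Without Nrf2-null vehicle replicate 1 the highest of these, 8, 4 and 5, were reached with D3T and at 3 and 10 μmol/kg. Values of the fibrinogen chains lie near the top of the scale, where differences are least well resolved.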
